A study of Mus musculus with 4 samples.

Results

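Maternal mRNA storage and decay genes were followed through mouse oocyte growth. They were chosen by name, as the rows of the deposited gene table that carry the symbols Cpeb1, Dazl, Ybx2, Zar1, Eif4e1b, Patl2, Btg4, Cnot7, Cnot6l and Zfp36l2, and all 10 were present among 25587 listed genes. The table comes from RNA-Seq of ribosomal RNA-depleted total RNA of wild-type oocytes of C57BL/6Babr mice (background strain C57BL/6), with 1 library for each of 4 stages: non-growing oocytes (NGOs, mice aged 5 days), growing oocytes of mice aged 8 to 14 days (GO1) and 15 days (GO2), and fully grown oocytes (FGOs, mice aged 20 days). Each library was a pool of oocytes. A dUTP strand-marking protocol was used for NGOs and FGOs, and ScriptSeq was the kit for GO1 and GO2. NGOs and FGOs were therefore compared with each other, as were GO1 and GO2, while protocol and stage cannot be told apart between NGOs and GO1 or between GO2 and FGOs. Without a replicate of any stage no test was possible, and the intervals below are 95% intervals that cover counting error only.

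A growing oocyte transcribes and stores mRNA for use after transcription has ceased. Stored messages are held with short poly(A) tails and RNA-binding proteins, are activated by cytoplasmic polyadenylation during meiotic maturation, and are later cleared when deadenylases of the CCR4-NOT complex remove their tails. Of the 10 genes, 6 encode proteins of storage and translational control (Cpeb1, Dazl, Ybx2, Zar1, Eif4e1b and Patl2) and 4 encode proteins of deadenylation and decay (Btg4, Cnot7, Cnot6l and Zfp36l2).

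Values are RPKM (read counts divided by exon length and by a library total), a level per length. Genes can be compared by it only as far as the exon length used fits the transcripts present. For Cnot7 that length was 5821 bases, all annotated exons joined, beside 2982 for the GENCODE transcript used below. RPKM values are shares of a library, and amounts of transcript per oocyte were not measured. All 10 oocyte markers examined (Zp1, Zp2, Zp3, Gdf9, Bmp15, Ddx4, Oosp1, Nobox, Figla and Kit) had an RPKM of 20.6 or more in every library. Their levels were not steady: between NGOs and FGOs, 2 were at least 2-fold higher, 4 lower and 4 within 2-fold. Of 15265 genes tested, 17.7% were higher and 16.8% lower. Between GO1 and GO2 all 10 were within 2-fold. Summed RPKM of 8 granulosa cell markers was 2.61 in NGOs, 2.39 at GO1, 5.01 at GO2 and 10.3 in FGOs, of which Cyp19a1 made up 6.08 in FGOs. Col1a1 (RPKM 2.24) and Col3a1 (RPKM 1.73), collagen genes of stromal cells, were detected in NGOs and had an RPKM of at most 0.0191 in any other library, as did the 3 blood cell markers together (summed RPKM 1.18 in NGOs). Summed RPKM of all 6 stromal and vessel markers was between 5.29 and 9.94, with Pecam1 making up to 9.70 of it and Lum at 0 outside NGOs. Counts recovered from the RPKM values came to between 64017100 and 141069049 per library over all genes, and the least covered of the 10 genes, Zfp36l2 in FGOs, had 1760. The library totals behind RPKM exceed the uniquely mapped reads several-fold, so all counts given here may overstate the number of independent reads.

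Sequences of the genes' own 3′ ends are shown first, for the elements that govern cytoplasmic polyadenylation. The cytoplasmic polyadenylation element, which CPEB1 binds, is written TTTTAT in DNA letters, and the polyadenylation signal is AATAAA. In the last 100 bases of 1 GENCODE transcript per gene, TTTTAT occurred in 3 of the 10 genes (Ybx2, Btg4 and Cnot7) and in 13.9% of 19348 transcripts, the second element form TTTTAAT occurred in none of the 10 and in 5.05% of transcripts, and AATAAA occurred in 8 of the 10 (not in Ybx2 or Btg4) and in 64.8% of transcripts. These are matches of letters in the sense strand and not sites shown to be used. Stretches of 30 bases around TTTTAT (capitals) are given in transcript sense for the 3 genes, at chr11:69941532-69941561 (plus strand) for Ybx2, chr9:51119797-51119826 (plus strand) for Btg4 and chr8:40493038-40493067 (minus strand) for Cnot7, on GRCm38 and all in the 3′ UTR.
Ybx2: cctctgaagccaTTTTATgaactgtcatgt
Btg4: agataaatccctTTTTATgtctttttaaaa
Cnot7: tcttaaggtacaTTTTATatcaataaaaat
The motif began 62 bases from the transcript end in Ybx2, 67 in Btg4 and 20 in Cnot7, where it lay 9 bases before an AATAAA. The Btg4 transcript runs 175 bases past the 3′ end of the gene as the table lists it, so that its motif lay outside the region counted. The table's Cnot7 extends 496 bases beyond the end of the transcript used.

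Promoter windows from RefSeq (GRCm38.p6, 250 bases before to 50 after the start) were at hand for 7 of the 10 genes, not for Eif4e1b, Cnot7 or Zfp36l2. They differed widely in base composition. The Btg4 window held 1 CG dinucleotide and was 39.0% G or C, whereas the Dazl window held 28 and was 68.7% and the Zar1 window held 17 and was 58.7%, beside medians of 7 and 52.7% over 32851 windows. Windows of these 3 genes, which had the highest levels of the 10, are given in gene sense: Zar1 at chr5:72581035-72581334 (minus strand) with the E-box letters CAGCTG in capitals, Dazl at chr17:50293571-50293870 (minus strand) and Btg4 at chr9:51115751-51116050 (plus strand).
Zar1: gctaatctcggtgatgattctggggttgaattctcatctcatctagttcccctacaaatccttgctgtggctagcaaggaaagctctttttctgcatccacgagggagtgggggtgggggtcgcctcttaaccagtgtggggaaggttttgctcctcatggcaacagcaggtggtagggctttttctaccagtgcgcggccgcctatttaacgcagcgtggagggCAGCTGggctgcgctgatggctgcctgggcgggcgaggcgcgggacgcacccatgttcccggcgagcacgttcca
Dazl: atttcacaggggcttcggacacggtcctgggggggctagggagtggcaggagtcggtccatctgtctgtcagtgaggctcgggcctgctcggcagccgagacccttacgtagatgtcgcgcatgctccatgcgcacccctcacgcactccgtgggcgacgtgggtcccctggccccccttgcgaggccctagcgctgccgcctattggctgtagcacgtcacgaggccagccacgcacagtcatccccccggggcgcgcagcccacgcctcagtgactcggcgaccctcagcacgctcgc
Btg4: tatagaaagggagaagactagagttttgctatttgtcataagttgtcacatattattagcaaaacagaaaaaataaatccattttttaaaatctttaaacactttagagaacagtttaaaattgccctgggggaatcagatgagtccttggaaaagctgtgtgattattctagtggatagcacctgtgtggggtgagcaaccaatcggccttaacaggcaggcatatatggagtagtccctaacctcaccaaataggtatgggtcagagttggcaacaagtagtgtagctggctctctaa
On either strand, CAGCTG occurred in the Zar1 window alone among those of the 7 genes and in 16.3% of all windows. The GENCODE transcript of Zar1 used for its 3′ end begins at chr5:72581254, upstream of the RefSeq start. In that transcript CAGCTG lies after the start and not before it. Which start the oocytes used was not tested. CACGTG and TATAAA occurred in that of Cpeb1 alone (7.15% and 13.6% of all windows), and TAATTG, the letters bound by the oocyte homeobox factor NOBOX, in none of the 7 (8.0% of all windows).

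The 10 genes were among the more abundant in every library. Their median RPKM was 71.2 in NGOs, 57.5 at GO1, 50.5 at GO2 and 56.1 in FGOs, where that of all listed genes was between 0.143 and 0.173. The median gene of the 10 had a higher RPKM than 98.7% of listed genes in NGOs, 98.3% at GO1, 98.0% at GO2 and 98.0% in FGOs. Zar1, Btg4 and Dazl were above the 99th percentile in all 4 libraries, and at the other end Zfp36l2 was above 87.1% of listed genes in NGOs and above 75.4% in FGOs.

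**Figure D1:**
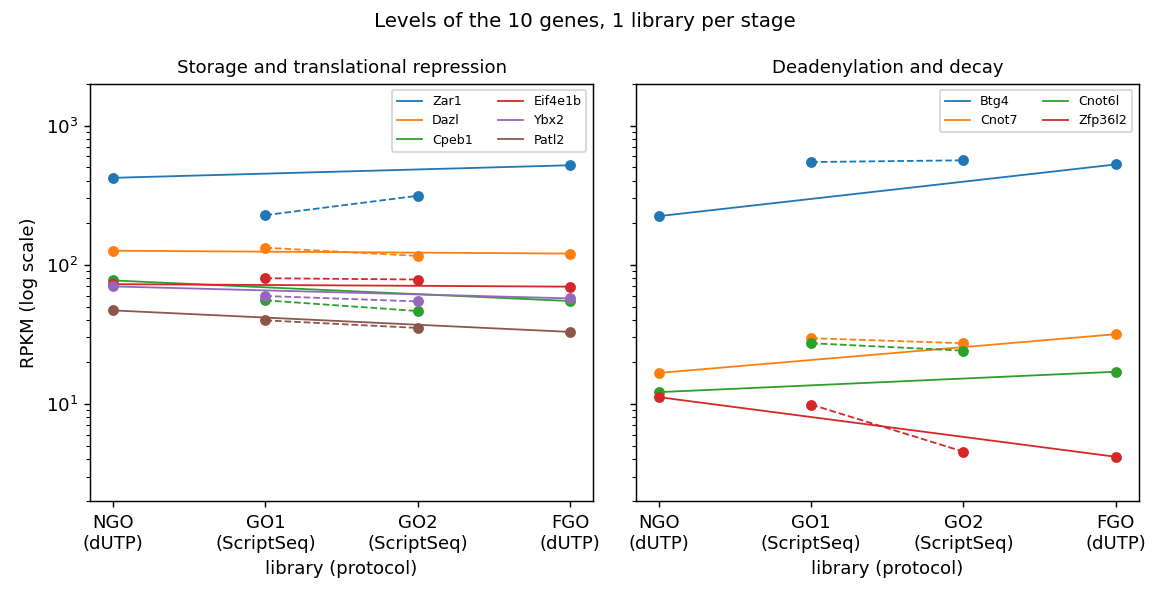
RPKM (log scale) of the 6 storage genes and the 4 deadenylation and decay genes in each library, with 95% counting intervals that are mostly smaller than the points. Solid lines join the libraries made with the dUTP protocol and dashed lines those made with ScriptSeq. Btg4 lies at 223 in NGOs and at 525 or more in the other libraries, and Zfp36l2 is the lowest of the plotted genes in every library.

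Among the storage genes, Zar1 had the highest level and the widest span. Zar1 (chr5:72577114-72581084), a zinc finger protein that binds maternal mRNA and is required for the oocyte-to-embryo transition, had an RPKM of 421 in NGOs, 227 at GO1, 313 at GO2 and 518 in FGOs. Both dUTP libraries were higher than both ScriptSeq libraries, and FGOs were 2.28-fold higher than GO1, a difference in which stage and protocol cannot be told apart. It ranked 35th of all listed genes in NGOs and 28th in FGOs. Within protocol the log2 change was 0.35 between NGOs and FGOs and 0.43 between GO1 and GO2, below 2-fold in both.

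Dazl and Eif4e1b were the most even of the 10. Dazl (chr17:50279394-50293599), a germ cell RNA-binding protein that promotes translation of its targets, had an RPKM of 126 in NGOs, 132 at GO1, 116 at GO2 and 120 in FGOs, a span of 1.15-fold. Eif4e1b (chr13:54783998-54788459), an oocyte form of the cap-binding factor eIF4E, had an RPKM of 72.5 in NGOs, 79.9 at GO1, 78.3 at GO2 and 69.6 in FGOs, also a span of 1.15-fold. From NGOs to FGOs the interval of the log2 change included 0 for both, at -0.02 (-0.04 to 0.00) for Dazl and -0.01 (-0.04 to 0.02) for Eif4e1b. Whether it did depended on the scaling between libraries. With RPKM as deposited the changes were -0.07 for Dazl and -0.06 for Eif4e1b, and with median of ratios scaling 0.02 and 0.03. From GO1 to GO2 the log2 changes were -0.23 and -0.06, respectively.

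Cpeb1, Ybx2 and Patl2 each had their highest level in NGOs. Cpeb1 (chr7:81347026-81455465), the protein that binds the cytoplasmic polyadenylation element, had an RPKM of 77.1 in NGOs, 55.5 at GO1, 46.5 at GO2 and 54.9 in FGOs, with overlapping intervals in GO1 and FGOs. Ybx2 (chr11:69935796-69941605), which encodes MSY2, a Y-box protein that coats and stabilises stored mRNA, had an RPKM of 69.8 in NGOs, 59.6 at GO1, 54.5 at GO2 and 57.3 in FGOs. Patl2 (chr2:122120108-122186189), an oocyte member of the PAT1 family of translational repressors, had an RPKM of 47.0 in NGOs, 39.8 at GO1, 35.1 at GO2 and 32.9 in FGOs. Each library was lower than the one before, but the steps from NGOs to GO1 and from GO2 to FGOs also change protocol. With counts divided by 4, the intervals of GO2 and FGOs overlapped. All log2 changes were below 2-fold, and from NGOs to FGOs they were -0.44 for Cpeb1, -0.23 for Ybx2 and -0.46 for Patl2, while from GO1 to GO2 they were -0.29, -0.16 and -0.21.

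The deadenylation and decay genes spanned 1.90-fold (Cnot7) to 2.68-fold (Zfp36l2) between their highest and lowest library, and the storage genes 1.15-fold to 2.28-fold. Some of these spans, among them those of Btg4, Cnot6l and Zar1, lay between libraries of different protocols. Btg4 (chr9:51116001-51119700), the adaptor that brings CCR4-NOT to maternal mRNA during maturation, had an RPKM of 223 in NGOs, 547 at GO1, 562 at GO2 and 525 in FGOs. NGOs were lowest and the highest of the other libraries was 1.07-fold above the lowest of them. Between NGOs and FGOs its log2 change was 1.29 (1.27 to 1.31), 2.44-fold higher, and between GO1 and GO2 it was 0.01 with an interval that included 0. The latter was 0.04 with RPKM as deposited. From NGOs to FGOs, 85.8% of all genes tested had a lower change than Btg4. Of the 8 granulosa cell markers, 4 (Cyp19a1, Kitl, Inha and Fshr) were at least 2-fold higher in FGOs than in NGOs, 1 (Foxl2) was lower and 3 were within 2-fold, and their part in the Btg4 difference was not tested. Btg4 ranked 74th of all listed genes in NGOs, 26th in GO1, 18th in GO2 and 27th in FGOs, and its interval overlapped that of Zar1 in FGOs. Zar1 was thus highest of the 10 genes in NGOs and Btg4 at GO1 and GO2.

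The 2 catalytic subunits among the genes were also lowest in NGOs. Cnot7 (chr8:40492540-40515847), a deadenylase of the CAF1 type, had an RPKM of 16.7 in NGOs, 29.6 at GO1, 27.3 at GO2 and 31.7 in FGOs. Its log2 change from NGOs to FGOs was 0.98 (0.94 to 1.01), 1.97-fold higher and just under the 2-fold threshold, and from GO1 to GO2 it was -0.15. Cnot6l (chr5:96070333-96164171), a deadenylase of the CCR4 type, had an RPKM of 12.1 in NGOs, 27.3 at GO1, 24.1 at GO2 and 17.0 in FGOs. Both ScriptSeq libraries were higher than both dUTP libraries, and its log2 change was 0.54 between NGOs and FGOs and -0.21 between GO1 and GO2. In the GENCODE annotation 247 of 5821 exonic bases of Cnot7 overlap Zdhhc2 on the opposite strand, whose RPKM was at most 0.895.

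Zfp36l2 was at least 2-fold lower in the later library of both pairs. Zfp36l2 (chr17:84183931-84187947), a zinc finger protein that binds AU-rich elements and recruits deadenylases, had an RPKM of 11.2 in NGOs, 9.89 at GO1, 4.53 at GO2 and 4.17 in FGOs. The earlier libraries were both above the later libraries, whichever protocol was used. It was 2.58-fold lower in FGOs than in NGOs (log2 change -1.37, -1.45 to -1.29) and 2.23-fold lower in GO2 than in GO1 (log2 change -1.16, -1.22 to -1.10). Among all genes tested 10.8% had a lower change from NGOs to FGOs, and 1.94% had a lower change from GO1 to GO2. Of the 6 stromal and vessel markers, 3 (Col1a1, Col3a1 and Dcn) were at least 2-fold lower in FGOs than in NGOs and 1 (Pecam1) was higher, and none of the 4 with enough counts was lower from GO1 to GO2. Their part in the Zfp36l2 difference was not tested. An RPKM is a share of a library, so a lower value need not mean less transcript per oocyte. In a pool of oocytes, fewer cells with a transcript and a lower share in each cell cannot be told apart.

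Set side by side, 1 of the 10 genes (Btg4) was at least 2-fold higher in FGOs than in NGOs and 1 (Zfp36l2) at least 2-fold lower, where 17.7% of 15265 genes tested were higher and 16.8% lower. From GO1 to GO2 none of the 10 was at least 2-fold higher and 1 (Zfp36l2) was lower, where 6.82% of 15741 genes tested were higher and 2.86% lower. At 4-fold none of the 10 was called in either pair, where 8.58% and 5.52% of genes tested were higher and lower in the first pair and 1.5% and 0.254% in the second. The 2-fold shares are near the background from NGOs to FGOs, and with 10 genes no more was read from them. The median log2 change of the 10 genes was -0.01 in the first pair and -0.19 in the second, beside -0.01 and 0.02 over all genes tested.

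**Figure D2:**
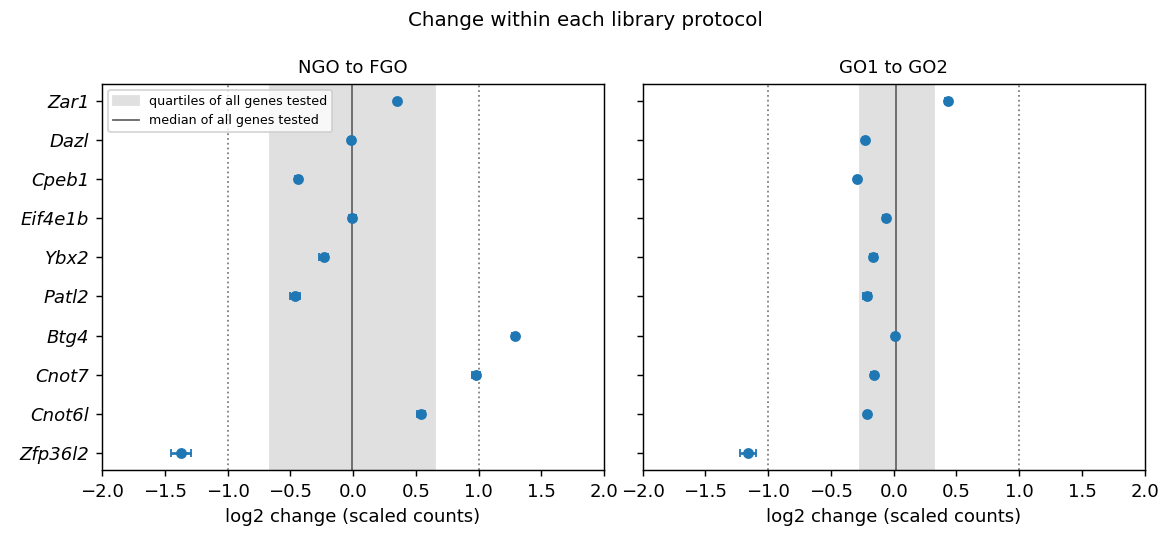
Log2 change of scaled counts of the 10 genes from NGOs to FGOs (left) and from GO1 to GO2 (right), with 95% counting intervals; shading spans the quartiles of all genes tested, the solid line is their median and dotted lines mark 2-fold. Btg4 lies past 2-fold from NGOs to FGOs (1.29), Cnot7 lies just short of it (0.98), and Zfp36l2 lies past it in both pairs (-1.37 and -1.16).

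Levels within a library do not depend on scaling between libraries, so each gene was next set against its closest relatives. Of 17 pairs, the gene of the storage and decay group had the higher RPKM in all 4 libraries in 15. The exceptions were Ybx2, which was lower than Ybx3 in every library (ratios of 0.704 in NGOs, 0.429 at GO1, 0.403 at GO2 and 0.562 in FGOs), and Cnot7, which was lower than its paralogue Cnot8 in NGOs (ratio of 0.752; 1.66 for counts without length) and close to it in GO1 (1.08), GO2 (1.02) and FGOs (1.10).

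Some margins were wide. Dazl exceeded Boll, a relative best known from the testis, 426-fold in NGOs, 1230-fold at GO1, 1752-fold at GO2 and 2197-fold in FGOs, although Boll had at most 115 counts in any library. Btg4 exceeded the broadly expressed Btg1 90.3-fold in NGOs, 193-fold at GO1, 325-fold at GO2 and 215-fold in FGOs. Btg3 was closer to Btg4 in NGOs, where Btg4 was 26.7-fold higher, than in FGOs, where it was 151-fold higher. For Zfp36l2 the margin over Zfp36 was 17.9-fold in NGOs, 13.2-fold at GO1, 7.37-fold at GO2 and 10.3-fold in FGOs, and Zfp36l3 had 1 count or none in each library, so that against a floor of 3 counts per library Zfp36l2 was at least 434-fold higher in FGOs and at least 1076-fold higher in NGOs.

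Cpeb1, Patl2, Ybx2 and Eif4e1b had higher ratios to their relatives in both dUTP libraries than in both ScriptSeq libraries. Stage and protocol cannot be told apart in this order. The ratio of Ybx2 to Ybx1 was 4.40 in NGOs, 1.62 at GO1, 1.44 at GO2 and 4.09 in FGOs. Cpeb1 exceeded Cpeb2 57.6-fold in NGOs and 118-fold in FGOs, against 19.9-fold at GO1 and 43.3-fold at GO2, and it exceeded Cpeb4 10.6-fold, 4.09-fold, 3.93-fold and 9.49-fold in NGOs, GO1, GO2 and FGOs. Patl2 exceeded Patl1 17.5-fold in NGOs, 8.28-fold at GO1, 10.6-fold at GO2 and 21.9-fold in FGOs. Eif4e1b and the general cap-binding gene Eif4e were the nearest of the pairs in which the oocyte gene was always higher, at ratios of 1.45, 1.16, 1.35 and 1.64, with 0.905 in place of 1.16 for counts without length.

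Zar1 and Zar1l drew closer from NGOs to FGOs. Zar1l, which encodes a related zinc finger protein, had an RPKM of 46.0 in NGOs, 68.0 at GO1, 91.6 at GO2 and 166 in FGOs. Zar1 exceeded it 9.16-fold in NGOs, 3.34-fold at GO1, 3.42-fold at GO2 and 3.11-fold in FGOs.

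**Figure D3:**
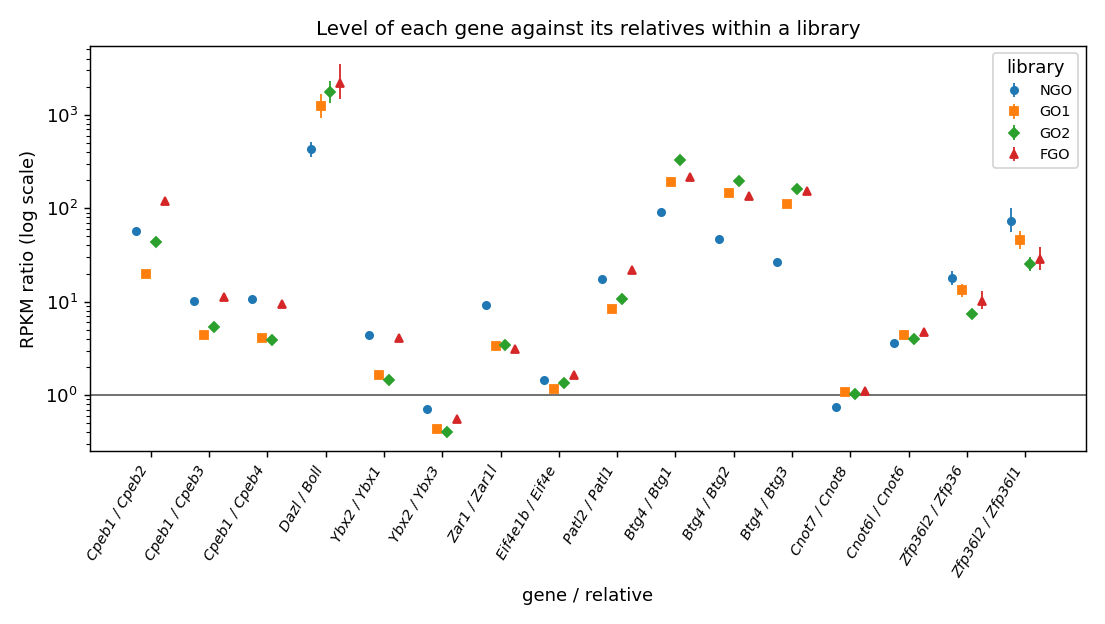
Ratio of the RPKM of each of the 10 genes to that of a relative in the same library (log scale), with 95% counting intervals; the line marks equal levels, and Zfp36l3, with 1 count or none, is left out. Ybx2 lies below Ybx3 in all 4 libraries, Cnot7 lies below Cnot8 only in NGOs, and the Dazl to Boll ratio runs from 426 to 2197.

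The surrounding pathway was described with 5 lists holding 58 other genes, of which 57 were in the table and 56 passed the count minimum. From NGOs to FGOs 4 were at least 2-fold higher, 7 lower and 45 within 2-fold, with a median log2 change of -0.15. These are 7.14% higher and 12.5% lower, beside 17.7% and 16.8% of all genes tested. From GO1 to GO2 none was higher and 1 (1.79%), Cpeb2, was lower (log2 change -1.41), beside 6.82% and 2.86% of all genes tested, with a median of -0.16.

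Of 5 genes of poly(A)-binding proteins, 1 (Pabpn1l) was at least 2-fold higher in FGOs than in NGOs and none was lower. Pabpn1l, which binds poly(A) of maternal mRNA, had an RPKM of 46.4 in NGOs, 46.4 at GO1, 69.8 at GO2 and 142 in FGOs (log2 change from NGOs to FGOs 1.67). Pabpc1l, the embryonic poly(A)-binding protein, had an RPKM of 30.8 in NGOs, 45.4 at GO1, 52.9 at GO2 and 59.0 in FGOs, with a log2 change of 0.99 that fell just short of 2-fold. The somatic form Pabpc1 had an RPKM of at most 2.82 in any library, at 2.74 in NGOs and 1.42 in FGOs.

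In the storage and cap-binding list of 11 genes, Zar1l (log2 change 1.91) and Eif4e3 (1.04) were higher in FGOs than in NGOs and Ddx6 was lower (-1.37). The call of Eif4e3 ended with RPKM as deposited (0.99). Ddx6, an RNA helicase of repressed messages and a partner of PAT1 proteins, had an RPKM of 22.1 in NGOs, 27.0 at GO1, 18.9 at GO2 and 8.25 in FGOs. Lsm14b, a partner of DDX6 in oocytes, had the highest level of the list in every library, with an RPKM of 341 in NGOs, 239 at GO1, 254 at GO2 and 293 in FGOs. Eif4e3 shares 373 of 2515 exonic bases with a listed gene on the same strand, Gm20696, and reads there cannot be told apart.

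In the CCR4-NOT list, of which 13 of 14 genes were in the table, Tob2, an adaptor of the BTG/TOB family like Btg4, was higher in FGOs (1.30), and Btg3 (-1.21) and the scaffold subunit Cnot1 (-1.02) were lower, the last no longer so with median of ratios scaling (-0.98). Cnot1 had an RPKM of 31.1 in NGOs, 33.7 at GO1, 25.7 at GO2 and 14.8 in FGOs, so that it was above Cnot7 in NGOs and below it in FGOs. Btg3 shares 695 of 4014 exonic bases with Cxadr on the opposite strand.

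In the cytoplasmic polyadenylation list of 13 genes none was higher and Cpeb2 (-1.47) and Boll (-2.33) were lower from NGOs to FGOs. Tent2, listed as Papd4 and encoding the poly(A) polymerase GLD2, had a log2 change of -0.53. Among 14 other decay factors tested none was higher, and Dcp1b (-1.90) and Tut4 (-1.57), both at an RPKM of at most 0.424 in any library, were lower, Tut4 not with a pseudocount of 0.1 RPKM (-0.96). The decapping subunit Dcp1a had an RPKM of 58.9 in NGOs, 105 at GO1, 101 at GO2 and 86.6 in FGOs, with a log2 change of 0.61 from NGOs to FGOs.

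**Figure D4:**
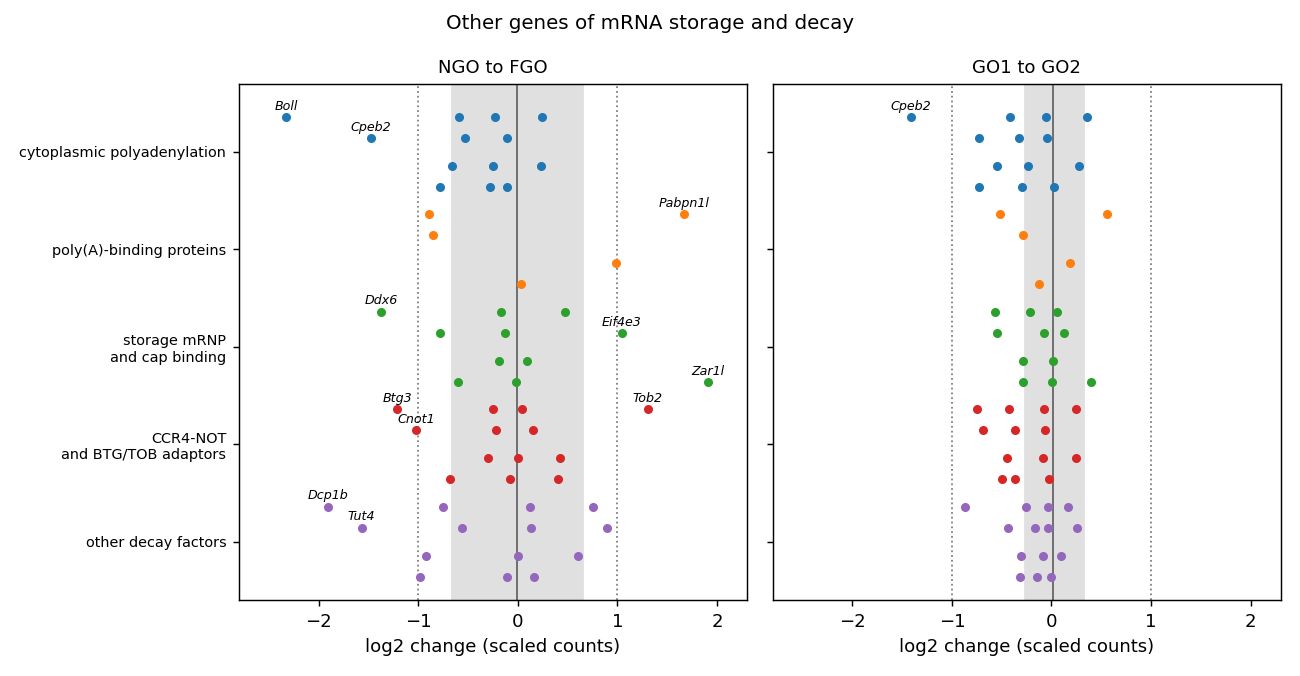
Log2 change of scaled counts of the other storage and decay genes by list, from NGOs to FGOs (left) and from GO1 to GO2 (right); shading spans the quartiles of all genes tested, the solid line is their median, dotted lines mark 2-fold, genes past it are named, and height within a list only separates the points. In NGOs to FGOs 4 genes lie above 2-fold and 7 below, and in GO1 to GO2 Cpeb2 alone lies below.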

How the data were processed

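Gene values of 4 libraries, 1 per stage, were analysed. Animal ages per stage come from the sample description of the study, since the labels give 5 to 20 days for all. The authors trimmed reads with Trim Galore 0.2.8, mapped them to GRCm38 with TopHat2 2.0.9 and deposited RPKM values for 25587 genes under a name that speaks of read counts; the program, annotation and strand setting behind the gene values are not given in the sources used here. The table held no other column of per-sample values (0 left out).

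Analyses were planned on counts. Counts were recovered from RPKM: a total per library was fitted on genes matching a GENCODE M21 transcript of 1 exon (between 99.37% and 99.72% of values above 0 whole within 0.002, with an added allowance for rounding of large values), then an exon length per gene from the GENCODE exon union (9930 genes), a transcript (1066) or the smallest length giving whole counts (10026). The fitted totals (110595208 in NGOs, 126796744 at GO1, 241385716 at GO2 and 119629249 in FGOs) exceed the uniquely mapped reads listed for each library several-fold. A read may therefore have entered more than once, and counting intervals are too narrow.

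Changes are log2 ratios of recovered counts with a prior count of 1 and library sizes adjusted with TMM factors, a trimmed mean of ratios (30% of ratios and 5% of mean levels trimmed at each end), for genes whose counts in the 2 libraries add up to 20 or more, and 2-fold was the threshold. TMM moved log2 changes by -0.05 (NGOs to FGOs) and 0.03 (GO1 to GO2) against RPKM as deposited. Length recovery and the calling of changes were tested on simulated data. Intervals are exact (Poisson for levels, Clopper-Pearson for ratios), at 95%. The floor was 3 counts. Python 3.11.15, numpy 2.4.6, pandas 2.3.3, scipy 1.17.1 and matplotlib 3.10.9 were used.

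The 10 genes, the lists and the relatives were chosen with earlier results of these data known. Named genes were the 10 genes, their relatives, and list genes by value; the 2 genes closest in profile to each of the 10 (smallest root mean square difference of centred log2 RPKM over the 4 libraries, at least 100 counts in each) were also taken. Cnot11 was not found under its symbol, and Tent2, Ybx3, Cnot9, Tut4 and Tut7 were matched by older symbols. Alternatives tried were other scalings, prior counts, count minimums, thresholds, TPM, detected genes as the base of percentiles, count ratios without length and, chosen after seeing the data, counts divided by 4.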

Additional observations from a re-analysis of the deposited data

How the results depend on the processing

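With 1 library per stage, the spread between pools of oocytes is unknown, and no result has a replicate check. No paired analysis was possible because each stage has 1 library and the groups share no pairs of replicates. Btg4 remained the gene of the 10 at least 2-fold higher from NGOs to FGOs (log2 change between 1.23 and 1.32 over 6 alternatives) and Zfp36l2 remained at least 2-fold lower in both pairs (between -1.42 and -1.34, and between -1.17 and -1.11). Among the alternatives, the count minimums cannot move these values, and the other prior count hardly did. The ranges therefore come from the scalings and from the RPKM pseudocount, which also used unscaled RPKM. With median of ratios scaling, 2 of the 10 genes were higher from NGOs to FGOs, as Cnot7 reached 1.01 (0.92 with RPKM as deposited). No direction of the called genes among the 10 turned. Signs of changes near 0 did turn with scaling, for Dazl and Eif4e1b from NGOs to FGOs. The same held for Btg4 from GO1 to GO2 (between -0.01 and 0.04). Of the other storage and decay genes from NGOs to FGOs, 3 were higher and 8 lower with RPKM as deposited (Eif4e3 lost at 0.99, Edc3 gained at -1.03), 5 and 6 with median of ratios (Pabpc1l gained at 1.02, Cnot1 lost at -0.98), and 3 and 6 with the RPKM pseudocount (Eif4e3 lost at 0.99, Tut4 lost at -0.96). Count ratios without length turned Cnot7 over Cnot8 in NGOs (1.66) and Eif4e1b over Eif4e at GO1 (0.905) and no other of the 17 pairs.

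At 4-fold, 0 of the 10 genes were called in either pair or direction, and the other storage and decay genes gave 0 higher and 1 lower (Boll) from NGOs to FGOs and 0 lower from GO1 to GO2. Over all genes, 4-fold gave 1309 higher and 843 lower from NGOs to FGOs (2702 and 2560 at 2-fold) and 236 and 40 from GO1 to GO2 (1074 and 450 at 2-fold). With any count above 0, 4310 genes were higher from NGOs to FGOs, and 2341 were higher and 1434 lower from GO1 to GO2, where at least 100 counts gave 557 and 216 and a pseudocount of 0.1 RPKM gave 398 and 114. Rescaled to TPM, the median level of the 10 genes was 378 in NGOs, 330 at GO1, 299 at GO2 and 299 in FGOs. Among genes with at least 3 counts their median percentile in FGOs was 97.0.

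With counts divided by 4, neighbouring libraries of a gene had overlapping intervals in 7 of 30 cases (2 with the counts as recovered) and neighbouring genes of a library in 5 of 36 (1).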

Other observations

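The profiles closest to those of the 10 genes were sought among 10750 genes with at least 100 counts in each library, as the root mean square difference in centred log2 RPKM over the 4 libraries. With 4 libraries and 2 protocols a close profile is common for even genes and is given as a description: 411 genes lay within 0.1 of Eif4e1b, 291 of Dazl, 111 of Zar1 and 46 of Btg4, but 1 of Zfp36l2. Nearest to Btg4 was Fgd6 (difference of 0.01), with an RPKM of 3.85 in NGOs, 9.64 at GO1, 9.81 at GO2 and 9.21 in FGOs. Nearest to Zar1 was Akt1, a kinase gene (difference of 0.01), with an RPKM of 11.03 in NGOs, 5.91 at GO1, 8.07 at GO2 and 13.7 in FGOs, also higher in both dUTP libraries. Nearest to Cnot6l were Zfp770 and Taok1 (0.02 for both), the latter with an RPKM of 14.8 in NGOs, 32.4 at GO1, 29.1 at GO2 and 20.9 in FGOs. The gene within 0.1 of Zfp36l2 was Fam19a5 (0.08), with an RPKM of 1.31 in NGOs, 1.08 at GO1, 0.547 at GO2 and 0.441 in FGOs. For the others, the nearest gene was Stoml2 to Cpeb1, Mcm9 to Dazl, Vta1 to Ybx2, Ppard to Eif4e1b, Hbp1 to Patl2 and Fam46d to Cnot7, at differences of between 0.01 and 0.02.

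Several storage and decay genes outside the 10 had both ScriptSeq libraries on one side of both dUTP libraries. Ybx1, the broadly expressed Y-box gene, had an RPKM of 15.9 in NGOs, 36.8 at GO1, 37.8 at GO2 and 13.99 in FGOs. Cnot3, a CCR4-NOT subunit, had an RPKM of 6.61 in NGOs, 22.2 at GO1, 17.6 at GO2 and 8.44 in FGOs. Edc4, a decapping scaffold, showed the opposite order, with an RPKM of 57.6 in NGOs, 28.5 at GO1, 32.9 at GO2 and 62.3 in FGOs. It shares 458 of 5497 exonic bases with Nrn1l on the same strand, and reads there cannot be told apart. Nrn1l had an RPKM of 12.4 in NGOs, 2.67 at GO1, 6.05 at GO2 and 20.5 in FGOs. Stage and protocol cannot be told apart in these orders.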
